A study of Mus musculus with 18 samples.

Results

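Microglia are the resident macrophages of the brain. The 32 genes described here mark microglia or the immune functions they carry, and were taken by name from a table of striatal expression that lists 29942 gene names. All 32 were found, and 28 of them had a mean level of at least 1 FPKM (fragments scaled to transcript length and library size) and were tested together with the other genes at that level, 13975 in all. The 4 below it were Fcrls, Ptprc, Tlr2 and Il1b, whose values are given without a place in the counts of tested genes.

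The tissue was the striatum of both brain hemispheres, from the part dorsal to the anterior commissure, of 18 mice, siblings of strain 129Sv/Jae S4, and polyA RNA was sequenced. The 6 groups of 3 mice were saline on day 1, 7 or 21 and amphetamine on day 1, 7 or 21. Saline mice had intraperitoneal 0.9% saline, and amphetamine mice had D-amphetamine hemisulfate in 0.9% saline, 7 mg/kg in total per day in 10 ml/kg. Groups were matched for age and sex, per the labels, which give neither the age itself nor the delay between the last injection and dissection. By its title the study concerns drug-induced repetitive behaviours. The comparisons ask whether transcripts of microglia differed between amphetamine and saline or between days.

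Microglia depend on the receptor Csf1r for survival and survey the tissue with fine processes that follow extracellular nucleotides through P2ry12 and the neuronal chemokine Cx3cl1 through Cx3cr1. Their receptors of the Trem2 type signal through adaptors such as Tyrobp, which carry an immunoreceptor tyrosine-based activation motif (ITAM), and material taken up is degraded in lysosomes by cathepsins. C1q, the molecule that starts the classical complement cascade, is built from the products of C1qa, C1qb and C1qc, and microglia are its main source in the brain. In a piece of whole tissue, fewer cells of a type and less RNA per cell cannot be told apart.

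The promoters of 5 members named in the results below are shown. C1qb and C1qc were taken because their levels moved together across libraries. C1qa moved with them but had no promoter at hand. P2ry12, P2ry13 and B2m had among the smallest unadjusted p values between days, as did Cx3cr1 and Fcer1g, which are not shown. Each promoter is the 250 bases before the gene's start in RefSeq's annotation of mouse build GRCm38.p6, read 5′ to 3′ on the gene's strand. Capitals mark each match, on either strand, to GAGGAA or, as seen from the opposite strand, TTCCTC. This is the core of sites bound by the myeloid transcription factor PU.1. In B2m they mark the core of the interferon-stimulated response element, which is GAAA, any 2 bases and GAAA again, or its reverse complement. C1qb lies at chr4:136886201-136886450 (minus strand), C1qc at chr4:136892915-136893164 (minus), P2ry12 at chr3:59262986-59263235 (minus), P2ry13 at chr3:59210883-59211132 (minus) and B2m at chr2:122147437-122147686 (plus).
C1qb: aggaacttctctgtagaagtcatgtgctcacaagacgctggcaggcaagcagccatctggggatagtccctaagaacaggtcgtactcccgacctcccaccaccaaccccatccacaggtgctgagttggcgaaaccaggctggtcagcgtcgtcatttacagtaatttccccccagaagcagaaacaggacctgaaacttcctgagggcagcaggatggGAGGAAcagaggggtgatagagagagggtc
C1qc: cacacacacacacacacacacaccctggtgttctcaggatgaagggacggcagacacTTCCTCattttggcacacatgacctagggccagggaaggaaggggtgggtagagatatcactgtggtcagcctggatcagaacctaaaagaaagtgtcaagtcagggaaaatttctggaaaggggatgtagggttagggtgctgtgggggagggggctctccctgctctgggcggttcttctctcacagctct
P2ry12: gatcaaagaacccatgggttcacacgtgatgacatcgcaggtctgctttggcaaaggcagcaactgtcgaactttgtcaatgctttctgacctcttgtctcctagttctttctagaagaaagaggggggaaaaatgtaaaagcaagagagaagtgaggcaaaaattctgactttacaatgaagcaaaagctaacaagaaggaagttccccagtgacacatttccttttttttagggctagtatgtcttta
P2ry13: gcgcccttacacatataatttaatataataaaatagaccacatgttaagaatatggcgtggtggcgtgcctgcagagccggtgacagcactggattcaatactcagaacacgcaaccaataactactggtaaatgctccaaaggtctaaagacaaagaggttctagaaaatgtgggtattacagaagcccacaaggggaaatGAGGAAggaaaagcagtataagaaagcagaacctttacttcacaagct
B2m: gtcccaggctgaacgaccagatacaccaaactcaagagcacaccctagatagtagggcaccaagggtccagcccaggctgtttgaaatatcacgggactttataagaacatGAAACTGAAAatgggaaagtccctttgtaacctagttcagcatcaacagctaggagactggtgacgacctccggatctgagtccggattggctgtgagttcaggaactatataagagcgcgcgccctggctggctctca

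C1qb, C1qc and P2ry13 each hold 1 match to the PU.1 core, ending 24, 187 and 42 bases before the start, P2ry12 holds none in this window, and B2m holds 1 match to the interferon element 129 bases before its start. A promoter was at hand for 24 of the 32 members. The PU.1 core was in 13 of these 24 (54.2%), namely Aif1, C1qb, C1qc, Cd53, Cd68, Csf3r, Ctss, Fcrls, Itgam, Laptm5, P2ry13, Ptprc and Trem2, and in 25.9% of 27025 genes with a promoter of the same length. The interferon element was in 3 of 24 (12.5%; Aif1, B2m and Ctss) and in 3.46% of all genes, and TGANTCA, the palindromic site of the Fos-containing factor AP-1, was in 2 of 24 (8.33%; Cd68 and Trem2) and in 7.82% of all genes. The first 2 motifs share the letters GAA, so their matches can overlap, and a match describes letters and not binding. In the same RefSeq assembly C1qb, C1qc and C1qa are consecutive protein-coding genes on chromosome 4, as are P2ry13 and P2ry12 on chromosome 3 and Tmem119 and Selplg on chromosome 5.

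The sum of FPKM per library ran from 533020 to 682270, and read totals are unknown. Low values fall on steps whose size gives the relative depth of a library, which ran from 0.635 (amphetamine replicate 3 of day 21) to 1 (saline replicate 1 of day 7) and was on average lower with amphetamine on each day (0.801 against 0.878, 0.813 against 0.888 and 0.754 against 0.866 on days 1, 7 and 21). Fos, a subunit of AP-1 that neurons induce when active, checks the treatment labels: it lay between 2.75 and 7.38 FPKM in the 9 saline libraries and between 16.1 and 36.8 in the 9 amphetamine libraries. Most markers of other immune cells had a mean under 1 FPKM (10 of 11 lymphocyte genes, 9 of 10 border macrophage genes, and 10 of 12 monocyte and neutrophil genes). The T cell gene Cd3e averaged 0.0541 FPKM, the monocyte receptor Ccr2 0.0998, the neutrophil gene S100a9 0.0134 and the border macrophage receptor Mrc1 0.0710. Summed levels were 0.364 to 1.41 FPKM for 10 lymphocyte genes other than Cd4, 0.725 to 1.60 for 9 border macrophage genes other than Cd163, and 0.226 to 4.26 for 11 monocyte and neutrophil genes other than Ly6c2. Cd4, Cd163 and Ly6c2 averaged 44.8, 1.67 and 6.00 FPKM. S100a8, the partner of S100a9 in neutrophils and part of the last sum, averaged 1.26 FPKM and ran from 0 to 3.62.

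Across the 28 tested members the mean level spanned from 33.5 ± 2.80 FPKM (SD, n = 18) for Lgmn, a lysosomal protease, to 1.17 ± 0.338 for Cd74, the chaperone of MHC class II. The lysosomal cathepsin Ctss followed at 26.4 ± 3.97 and B2m, the light chain of MHC class I, at 24.7 ± 3.75. C1qa averaged 22.1 ± 3.39, C1qb 18.6 ± 3.13 and C1qc 17.3 ± 2.82. Csf1r at 19.1 ± 1.56, C1qb, P2ry12 at 18.3 ± 2.39 and C1qc followed each other in this order with steps smaller than their SDs, whereas Lgmn stood above Ctss by more than either SD. Cx3cr1 was at 11.8 ± 0.946, Tmem119, a microglial membrane protein, at 9.18 ± 1.13, and Trem2, a lipid-sensing receptor, at 4.84 ± 0.750. Near the bottom stood Irf8, a transcription factor of the macrophage lineage, at 2.01 ± 0.300 and Cd14, a co-receptor for bacterial lipopolysaccharide, at 1.36 ± 0.405. The coefficient of variation over the 18 libraries was smallest for Cx3cr1 (8.0%) among tested members, then Csf1r (8.16%) and Lgmn (8.34%), and largest for Cd14 (29.8%), Cd74 (29.0%) and Tyrobp (26.2%).

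**Figure D1:**
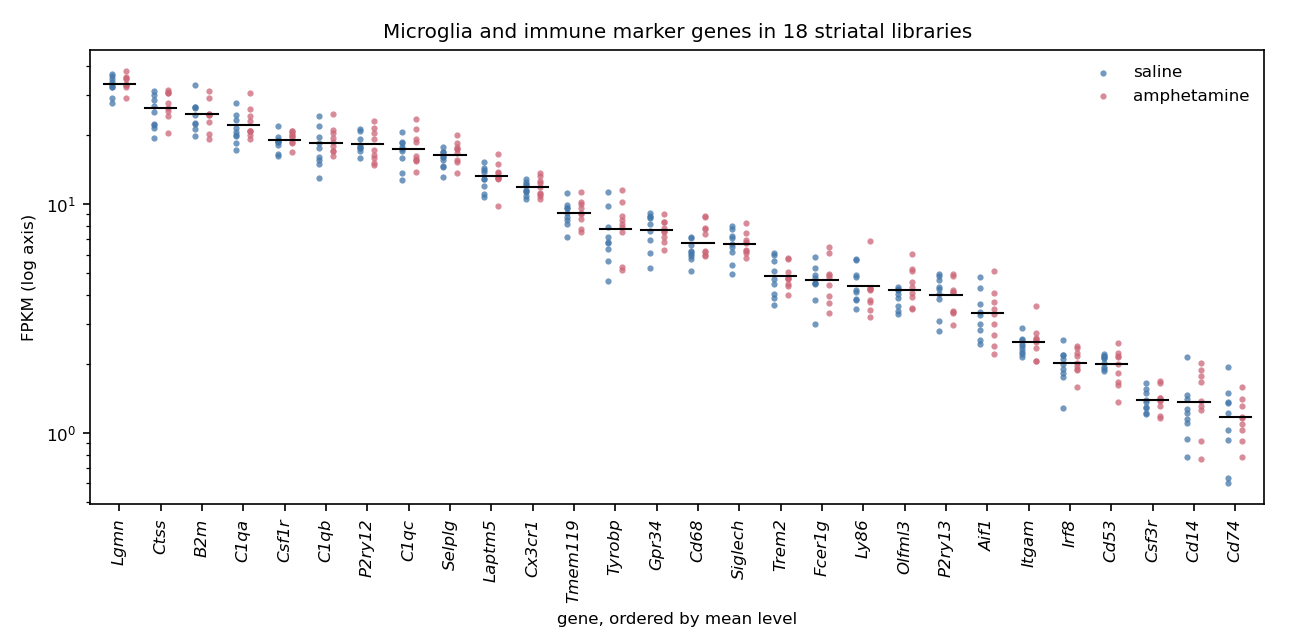
FPKM on a log axis for the 28 members with a mean of at least 1 FPKM, ordered by mean. Each point is 1 of 18 libraries (blue saline, red amphetamine) and the black bars are means over all libraries, which run from 33.5 for Lgmn to 1.17 for Cd74, with the points of both treatments interleaved.

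None of the 28 tested members passed the threshold for a difference between amphetamine and saline, an adjusted p under 0.05 in limma over all 13975 genes. That held on day 1 (0 of 28, beside 0.00716% of all genes tested), day 7 (0 of 28, beside 0.0215%), day 21 (0 of 28, beside 0%) and over the mean of the 3 days (0 of 28, beside 0.122%). At an unadjusted limma p under 0.05 there was 1 member on day 1 (Irf8; 7.25% of all genes), 1 on day 7 (Csf1r; 4.92%), 1 on day 21 (Olfml3; 5.5%) and 0 over the mean of days (5.36%). No difference of the treatment effect between days was detected for a tested member (0 of 28 by the limma interaction test, 0 of all genes). At an unadjusted p under 0.05 in that test there were 0 members, beside 6.25% of all genes. Each member's 95% interval was set against fixed folds on the log2(FPKM + 1) scale, which understates fold changes of members near 1 FPKM. These intervals are taken gene by gene and are not a joint bound. Over the mean of 3 days, the 95% intervals of all 28 members lay within 1.5-fold on the log2(FPKM + 1) scale and those of 27 within 1.3-fold, Tyrobp being the exception. On single days, with 3 mice against 3, all 28 intervals lay within 2-fold on the same scale. Of them 24, 24 and 27 lay within 1.5-fold on days 1, 7 and 21. The standard error of a single-day difference ran from 0.062 for Cx3cr1 to 0.27 for Tyrobp.

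**Figure D2:**
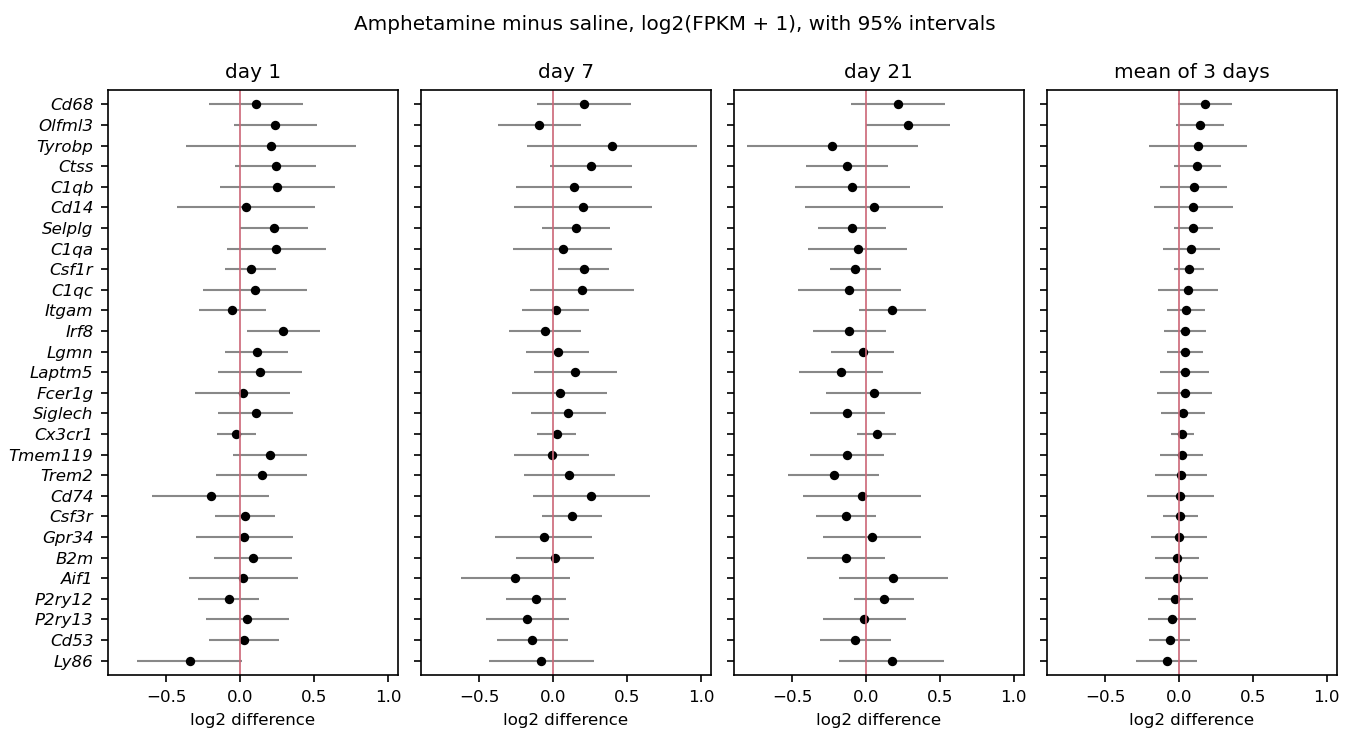
Difference between amphetamine and saline in log2(FPKM + 1) for 28 members (rows, ordered by the mean of 3 days), with 95% intervals from limma (grey lines), for each day and the mean of days. In the last panel all points lie between -0.08 (Ly86) and 0.18 (Cd68), and each interval stays within 1.5-fold on this scale.

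Among genes of microglial identity and their surface receptors, 12 of 13 were tested and none passed on any day. Csf1r stood at 16.1, 18.04 and 18.6 FPKM in the saline mice of day 7 and at 20.9, 20.5 and 19.96 in the amphetamine mice. The groups did not overlap there, and the log2 difference was 0.21 ± 0.080 (SE; limma adjusted p = 0.892). On day 1 Csf1r was 0.07 higher and on day 21 0.07 lower with amphetamine, with overlapping groups. Csf3r, the receptor of granulocyte colony-stimulating factor, also did not overlap on day 7, with 1.21, 1.37 and 1.22 FPKM in saline and 1.41, 1.66 and 1.37 in amphetamine mice (log2 difference 0.13 ± 0.095 SE; limma adjusted p = 1). Olfml3, a secreted protein enriched in microglia, stood on day 21 at 4.21, 3.41 and 4.05 FPKM in saline mice and 5.09, 4.55 and 5.21 in amphetamine mice, 0.28 ± 0.13 (SE) apart on the log2 scale (limma adjusted p = 0.869). On day 1 it was also higher on average, by 0.24, with amphetamine libraries at 6.05, 3.5 and 4.36 FPKM, and on day 7 it was 0.09 lower. The chemokine receptor Cx3cr1 was the most precisely measured: its log2 difference over the mean of days was 0.02 with a 95% interval of -0.05 to 0.10. P2ry12, the purinergic receptor, was -0.02, Tmem119 0.02, Gpr34, a lysophospholipid receptor, 0.00, and Aif1, the cytoskeletal protein known as Iba1, -0.02.

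The C1q genes were each higher on average with amphetamine on days 1 and 7 and lower on day 21, and none passed the test. On days 7 and 21 the signs of C1qa and C1qb turned when saline replicate 2 of the same day was left out. The day 1 sign of C1qc turned without amphetamine replicate 3 of that day. The genes moved together across libraries, so they are not separate observations of a direction. C1qa stood on day 1 at 18.5, 20.7 and 24.4 FPKM in saline mice and at 25.97, 19.9 and 30.6 in amphetamine mice. The third amphetamine library was the highest of all 18 for C1qa, C1qb and C1qc, and the groups overlapped. Its oligodendrocyte genes were also the highest of all libraries, with a sum of 3088 FPKM against 1390 to 2390 in the saline mice of that day; the part of this in the C1q values was not tested. The day 1 log2 differences were 0.24 ± 0.16, 0.25 ± 0.18 and 0.10 ± 0.16 (SE) for C1qa, C1qb and C1qc (limma adjusted p = 0.692, 0.710 and 0.860). Over the mean of days they were 0.08, 0.10 and 0.06.

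Of 7 members that signal through ITAM adaptors or serve phagocytosis, all 7 were on average higher with amphetamine on days 1 and 7 and 2 of 7 on day 21, and none passed. Of all tested genes 64.0%, 51.5% and 42.7% were higher on days 1, 7 and 21. The day 1 sign of Tyrobp turned without saline replicate 1 of that day, and that of Cd68 without amphetamine replicate 3. The day 7 sign of Lgmn turned without saline replicate 1 of day 7, and that of Fcer1g without amphetamine replicate 2. Fcer1g was only 0.018 and 0.045 higher on days 1 and 7. Cd68, a lysosomal glycoprotein of phagocytes, had the smallest p of any tested member over the mean of days, with a log2 difference of 0.18 ± 0.086 (SE; limma unadjusted p = 0.0585, adjusted p = 0.954). Its 9 saline values ran from 5.11 to 7.20 FPKM with a median of 6.16, and its 9 amphetamine values from 5.92 to 8.88 with a median of 7.40, so the upper amphetamine libraries lay above the saline range and the lower ones within it. Ctss was 0.24 and 0.26 higher on days 1 and 7 and 0.13 lower on day 21. Tyrobp was the widest, with 5.64, 6.83 and 6.37 FPKM in saline and 11.5, 10.2 and 5.29 in amphetamine mice of day 7, 0.40 ± 0.27 (SE) apart on the log2 scale (limma adjusted p = 1). Laptm5, a lysosomal membrane protein of leukocytes, did not overlap on day 7, with 10.8, 11.98 and 12.9 FPKM in saline and 12.97, 13.9 and 13.04 in amphetamine mice, and its difference of 0.15 ± 0.13 (SE) did not pass (limma adjusted p = 1).

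Irf8 had the lowest day 1 p of the tested members. It stood at 2.18, 1.76 and 1.29 FPKM in saline mice and 2.40, 2.23 and 2.35 in amphetamine mice, so all amphetamine libraries lay above all saline libraries (log2 difference 0.29 ± 0.11 SE; limma unadjusted p = 0.0232, adjusted p = 0.666). On days 7 and 21 the difference was -0.05 and -0.11 with overlapping groups, and the interaction gave an unadjusted limma p of 0.0528 (adjusted p = 0.773). Ly86, a partner of a Toll-like receptor homologue on myeloid cells, went the other way on day 1, at 4.81, 5.70 and 5.75 FPKM in saline mice and 4.22, 3.72 and 4.25 in amphetamine mice (log2 difference -0.34 ± 0.17 SE; limma adjusted p = 0.674). Cd53, a leukocyte tetraspanin, differed by 0.03, -0.14 and -0.07 on days 1, 7 and 21.

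Of the antigen presentation genes, B2m on day 21 stood at 26.4, 26.7 and 26.6 FPKM in saline mice and at 24.8, 24.6 and 22.9 in amphetamine mice. The groups did not overlap, and the difference of -0.14 ± 0.12 (SE) did not pass (limma adjusted p = 0.884). Cd74 differed by -0.20, 0.26 and -0.03 on the 3 days, with single libraries between 0.601 and 1.94 FPKM. Counting all tested members, groups that did not overlap numbered 1 higher (Irf8) and 1 lower (Ly86) of 28 on day 1, where 7.73% of all genes were so higher and 2.91% lower. On day 7 they numbered 3 higher (Csf1r, Csf3r and Laptm5) and 0 lower, beside 5.45% and 4.86% of all genes. On day 21 they numbered 1 higher (Olfml3) and 1 lower (B2m), beside 4.76% and 7.51%. These shares do not cover the 4 members under 1 FPKM. Of those, groups did not overlap for 0 on day 1, 1 on day 7 (Ptprc) and 2 on day 21 (Fcrls and Tlr2), all higher with amphetamine. How often other genes at such low levels were so apart was not computed. Nothing about the members is read from these small counts.

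The innate activation genes were low, and the shares of non-overlapping groups given above do not extend to genes under 1 FPKM. Cd14 differed by 0.04, 0.20 and 0.05 on the 3 days and did not pass. Tlr2, a receptor for bacterial lipoproteins, averaged 0.344 FPKM, and on day 21 stood at 0.263, 0.281 and 0.386 in saline mice and 0.477, 0.461 and 0.440 in amphetamine mice, without overlap. Fitted without the filter on low values, its day 21 difference was 0.16 ± 0.072 (SE; limma adjusted p = 0.875). The cytokine gene Il1b had 0.500 FPKM at most and was under 0.001 in 7 of 18 libraries. Ptprc, which encodes the leukocyte phosphatase CD45, ran from 0.435 to 0.858 FPKM and differed by -0.02, 0.17 and -0.02 on the 3 days in the fit without the filter. On day 7 its groups did not overlap (0.587, 0.472 and 0.435 with saline, 0.625, 0.787 and 0.650 with amphetamine; limma adjusted p = 1 without the filter).

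Fcrls, an Fc receptor-like gene typical of mouse microglia, varied most among the members with a value above 0 in every library, 11.5-fold between its lowest and highest. On day 1 it stood at 0.589, 1.57 and 1.86 FPKM in saline mice and 0.441, 0.242 and 0.600 in amphetamine mice, and on day 21 at 0.421, 0.423 and 0.184 in saline mice and 0.906, 2.10 and 1.06 in amphetamine mice. On day 7 it stood at 0.540, 1.00 and 1.29 in saline mice and 2.12, 1.33 and 1.01 in amphetamine mice. The mean was thus lower with amphetamine on day 1, where 1 pair of libraries overlapped, and higher on day 21, where the groups were apart. Without the filter the differences were -0.68 ± 0.24 (SE) on day 1 and 0.78 ± 0.24 on day 21, and neither these (limma adjusted p = 0.703 and 0.742) nor the interaction (unadjusted p = 0.00284, adjusted p = 0.845) passed over all genes. The program that estimated these FPKM is not given in the sources used here, and another gene of the table, the kinase Syk, is listed at or next to 0 in every library, so whether the spread of Fcrls comes from its estimation was not tested.

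**Figure D3:**
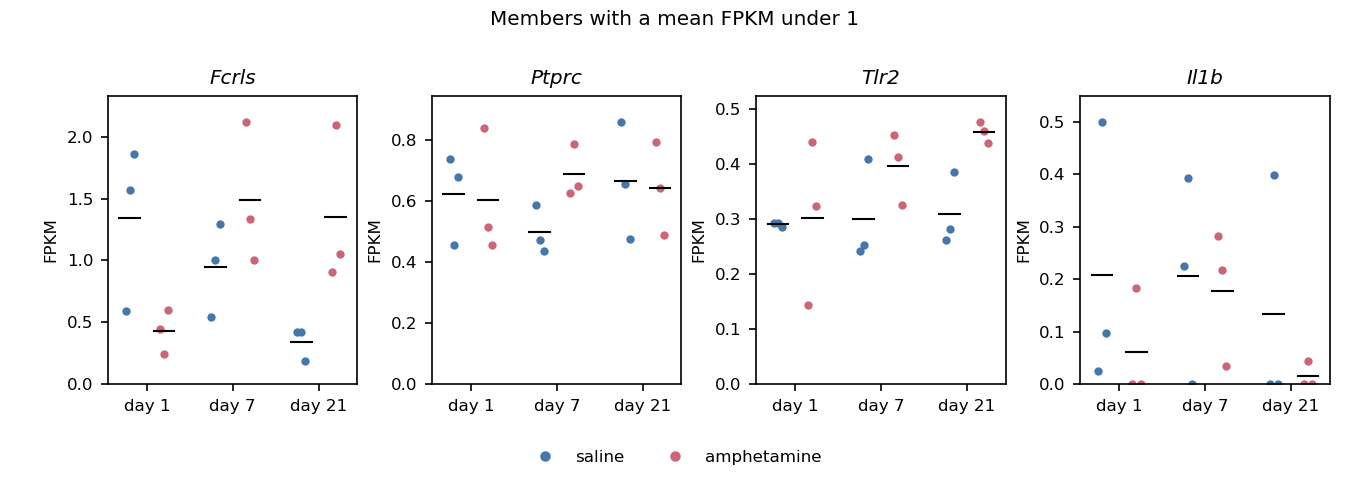
FPKM of the 4 members with a mean under 1 FPKM, by day and treatment (points are single mice, bars are group means, axes start at 0). Fcrls is lower on average with amphetamine on day 1 and higher on day 21, and Tlr2 is apart on day 21 with values of 0.440 to 0.477 against 0.263 to 0.386.

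As a list the members are described by counts and medians, and no test of the list was made. The median log2 difference was 0.09 on day 1 (23 of 28 higher with amphetamine), where the median of all tested genes was 0.05 and 64.0% of them were higher. On day 7 it was 0.05 (19 of 28 higher), beside 0.00 and 51.5% for all genes. On day 21 it was -0.06 (10 of 28 higher), beside -0.02 and 42.7%, and it was 0.0028 without amphetamine replicate 2 of that day, -0.0986 without amphetamine replicate 3 and -0.0313 without saline replicate 2. The day 1 median was 0.0482 without saline replicate 1 of day 1, and 0.0413 under median-of-ratios scaling. The day 7 median was 0.035 without amphetamine replicate 1 of day 7 and 0.0924 without replicate 3. Over the mean of days it was 0.04 (22 of 28 higher), beside 0.01 and 55.6% for all genes, and 0.0606 without amphetamine replicate 2 of day 21, 0.0215 without replicate 1 of that group and 0.0589 without saline replicate 3 of day 1. On day 1 all 9 oligodendrocyte genes were also higher on average (median 0.25), as were 8 of 10 astrocyte genes (median 0.13), and 0 of either list passed. The summed level of 8 choroid plexus and ependyma genes was 12.3 to 22.6 FPKM in the saline libraries of day 1 and 33.0 to 103.7 in the amphetamine libraries, and 0 of its 5 tested genes passed. The part of these lists in the members' shift was not tested.

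Between days, with both treatments at equal weight, no tested member passed either (0 of 28 by the limma F test, beside 0% of all genes). At an unadjusted p under 0.05 there were 7 members, P2ry12, Cx3cr1, B2m, Fcer1g, P2ry13, Aif1 and Ctss, where 10.7% of all genes did so. Within saline mice 0 of 28 passed (0.00716% of all genes) and 3 had an unadjusted p under 0.05 (Ctss, Siglech and B2m; 5.95% of all genes). Most members had their lowest daily mean on day 7 (18 of 28) and their highest on day 21 (16 of 28). The shares of all genes with these extremes were not computed, and nothing particular to the members is read from the 2 counts. All genes also shifted down from day 1 to day 7 (median -0.03). From day 7 to day 21, 25 of 28 members were higher, with a median log2 difference of 0.12 beside 0.03 for all genes, of which 61.4% were higher. Under median-of-ratios scaling these medians were 0.104 for members and 0.0018 for all genes. Sample numbers in the labels, whose meaning is not given, were unevenly spread over the days. The highest range held every day 1 mouse except saline replicate 1, which was in the lowest, so on day 1 the ranges also differed between treatments. No day 7 mouse was in the highest range. A difference of day 7 from day 1 adjusted for the range thus leans on that saline library and on day 21 mice. With the range of the sample number as a covariate, 14 of 28 were higher on day 7 than on day 1 (median -0.00035), against 9 without it (median -0.05). For day 21 against day 7 the count stayed at 25 (median 0.08), and for day 21 against day 1 it went from 17 to 23. The cause of these shifts was not tested. Taken by pairs of days, 0 of 28 members passed (beside 0.00716% of all genes between days 1 and 7 and 0% for the other pairs), and an unadjusted limma p under 0.05 was found for 3 between days 1 and 7 (10.9% of all genes), 6 between days 1 and 21 (6.48%) and 6 between days 7 and 21 (10.8%).

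P2ry12 carried the smallest p. It ran from 14.8 to 19.3 FPKM on day 1, 15.1 to 17.8 on day 7 and 17.6 to 23.2 on day 21, so that 5 of the 6 mice of day 21 lay above every mouse of the earlier days. The log2 difference of day 21 from day 7 was 0.29 ± 0.068 (SE; limma adjusted p = 0.166). In amphetamine mice alone it went from 17.2, 15.8 and 15.1 FPKM on day 7 to 23.2, 21.5 and 20.4 on day 21, and in saline mice from 17.5, 17.8 and 17.1 to 20.9, 17.6 and 21.2. Cx3cr1 showed a like order, with 10.5 to 12.1 FPKM on day 1, 10.8 to 12.3 on day 7 and 12.2 to 13.7 on day 21, and a difference of day 21 from day 7 of 0.17 ± 0.044 (SE; limma adjusted p = 0.206). P2ry13, the neighbouring purinergic receptor gene, ran from 4.21 to 4.96 FPKM on day 21 and from 2.80 to 4.68 on day 7, a difference of 0.34 ± 0.093 (SE; limma adjusted p = 0.244). Aif1 averaged 2.80 ± 0.399 FPKM (SD, n = 6) on day 1, 3.26 ± 0.908 on day 7 and 3.98 ± 0.674 on day 21.

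Other members took another course. B2m was lowest on day 7, at 21.3 ± 2.01 FPKM (SD, n = 6), against 27.5 ± 4.2 on day 1 and 25.3 ± 1.51 on day 21, and its difference of day 7 from day 1 was -0.35 (limma adjusted p = 0.260). Ctss was likewise lowest on day 7 at 23.4 ± 4.18 FPKM, against 27.6 ± 3.47 and 28.1 ± 2.86. Fcer1g, an adaptor of Fc receptors, was lowest on day 1 at 3.79 ± 0.599 FPKM and stood at 5.29 ± 0.723 on day 7 and 4.87 ± 0.753 on day 21 (day 7 from day 1: 0.40; limma adjusted p = 0.273). Irf8 had daily means between 1.93 and 2.08 FPKM over both treatments. In amphetamine mice its means were 2.33, 2.02 and 1.81 FPKM on days 1, 7 and 21, and in saline mice 1.74, 2.15 and 2.04. Its difference of day 21 from day 1 in amphetamine mice was -0.25 (limma unadjusted p = 0.04999, adjusted p = 0.484). How the number of injections and the age at dissection went with the day is not said in the labels. Over the same interval, day 7 to day 21, the median difference was 0.05 for 29 other genes expressed in microglia (23 higher), 0.00 for 10 astrocyte genes, 0.06 for 9 oligodendrocyte genes, 0.02 for 9 endothelial genes and -0.07 for 9 genes of striatal neurons.

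**Figure D4:**
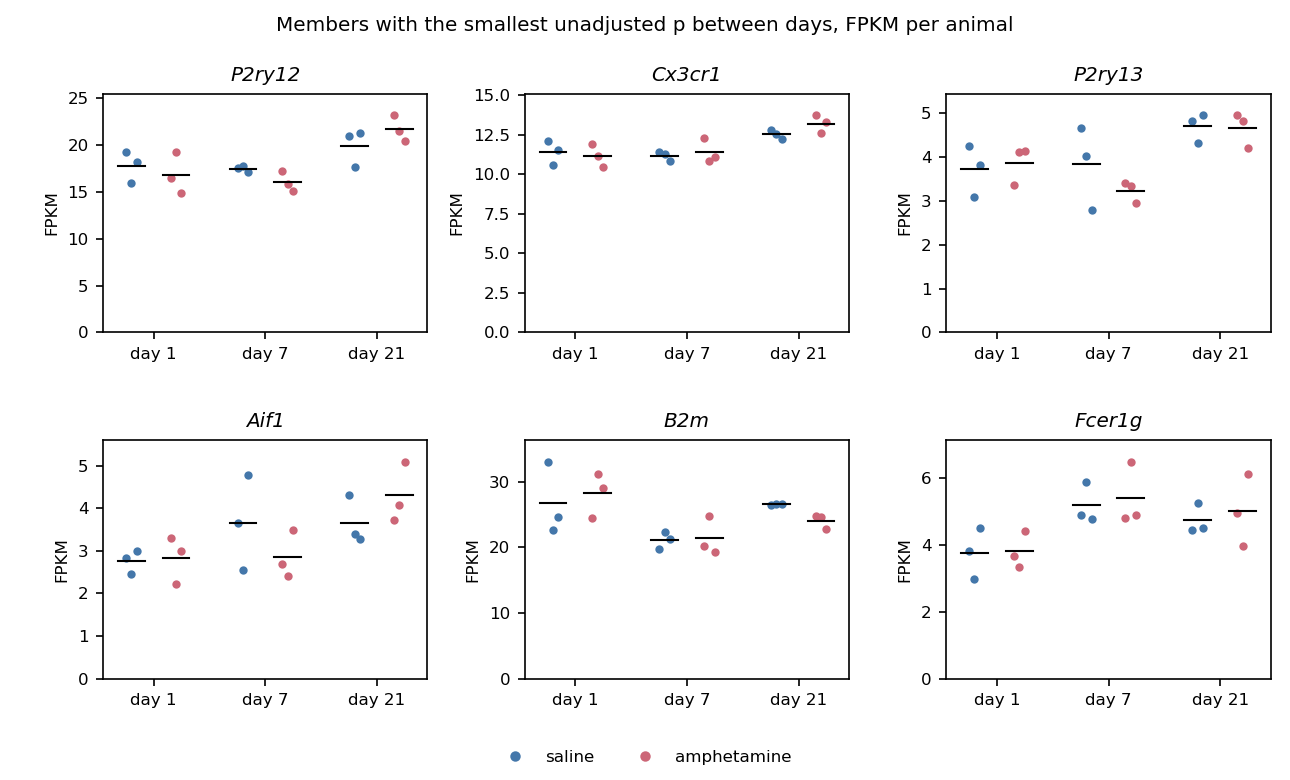
FPKM per mouse by day and treatment for 6 members with the smallest unadjusted p between days (bars are means of 3 mice, axes start at 0). P2ry12 and Cx3cr1 sit highest on day 21 in both treatments, B2m dips on day 7 and Fcer1g is lowest on day 1, and none passed over all genes.

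Partner genes were compared through deviations of each library from its group mean, on the log2 scale, for 9 pairs chosen after the values were seen. The p values are exact and two-sided over the 46656 reassignments of mice within groups, adjusted by the Benjamini-Hochberg method over the 9 pairs. C1qa and C1qb moved together over 18 libraries (r = 0.906, exact permutation adjusted p = 0.00135; rho = 0.872, adjusted p = 0.00405), and r was 0.895 without the 2 libraries farthest from the median. C1qa and C1qc gave r = 0.837 (exact permutation adjusted p = 0.00135; rho = 0.816, adjusted p = 0.00405; r = 0.762 without 2), and C1qb and C1qc r = 0.815 (exact permutation adjusted p = 0.00264; rho = 0.763, adjusted p = 0.0116; r = 0.746 without 2). The level of C1qa was 1.06 to 1.38 times that of C1qb in every library. P2ry12 and P2ry13 gave r = 0.500 (exact permutation adjusted p = 0.0462; rho = 0.517, adjusted p = 0.0844; r = 0.637 without 2), so the call held for 1 of the 2 measures. B2m and H2-K1, a heavy chain that pairs with it, gave r = 0.613 (exact permutation adjusted p = 0.0967; rho = 0.690, adjusted p = 0.0417; r = 0.578 without 2). The receptor Trem2 and its adaptor Tyrobp gave r = -0.002 (exact permutation adjusted p = 0.992; rho = -0.032, adjusted p = 0.900; r = -0.109 without 2), and their ratio ran from 0.410 to 0.967. The pairs of Fcer1g with Tyrobp, P2ry12 with Cx3cr1 and B2m with H2-D1 had r of 0.522, 0.544 and 0.366 (exact permutation adjusted p = 0.145, 0.111 and 0.321; rho = 0.501, 0.564 and 0.337, adjusted p = 0.141, 0.0897 and 0.333; r = 0.488, 0.550 and 0.337 without 2).

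**Figure D5:**
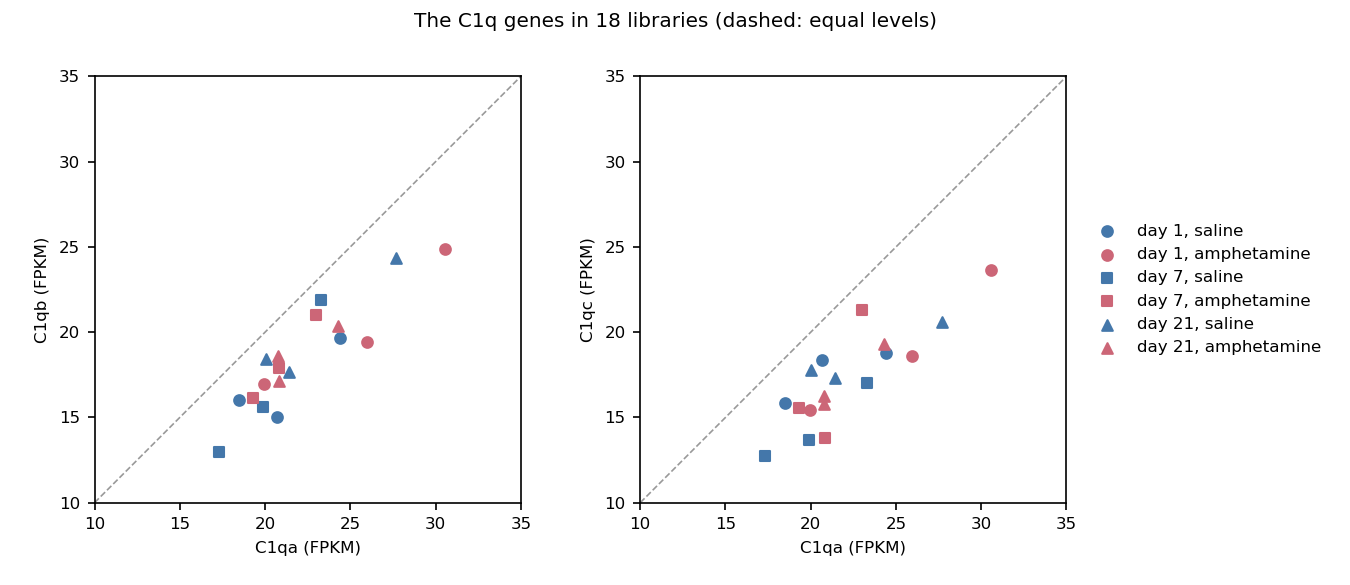
FPKM of C1qb (left) and C1qc (right) against C1qa in 18 libraries (colour is treatment, shape is day, the dashed line marks equal levels). The points rise together, with C1qa above both partners in every library and amphetamine replicate 3 of day 1 at the top (30.6 FPKM for C1qa).

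Beyond the members, genes of the same pathways gave no call over the mean of days. Of 29 tested other genes expressed in microglia, 25 were higher on average with amphetamine and 0 passed (median 0.05). Mertk, a phagocytic receptor kinase, differed by 0.13 ± 0.056 (SE; limma adjusted p = 0.912). Of 9 ligands that act on microglia 0 passed, and Cx3cl1, the ligand of Cx3cr1, averaged 236 and 239 FPKM. Of 14 genes tied to disease-associated microglia 7 were tested and 0 passed. Apoe, the lipid carrier that astrocytes also make, averaged 904 FPKM, whereas the state's markers Itgax, Cst7 and Clec7a averaged 0.0880, 0.0575 and 0.0258. Of 22 cytokine, chemokine and feedback genes 5 were tested and 0 passed, with Tnf at 0.00503, Il6 at 0.0209 and Cxcl10 at 0.0784 FPKM on average. The tested genes of the interferon response (7), MHC class I and its loading (6), MHC class II (2) and other complement (4) gave 0 calls as well.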

How the data were processed

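Striatal polyA RNA of 18 mice was measured in 6 groups of 3, read from the titles of the samples. The deposited values are FPKM per gene, made by the authors, with 18 columns matched to samples by number and 0 columns of other samples. Bowtie and build mm9 were used, per the submitters' processing notes; of versions, quantifier, annotation and strand handling the sources used here say nothing, so overlapping genes cannot be told apart. FPKM are not counts, so log2(FPKM + 1), which understates changes of low genes, was fitted with limma (version 3.58.1, R 4.3.3; mean-variance trend, 1 mean per group, 12 residual degrees of freedom) for genes with a mean of at least 1 FPKM. P values are two-sided, with Benjamini-Hochberg adjustment over 13975 genes and a threshold of 0.05. The script was tested on simulated data. Alternatives were other pseudocounts, filters, scalings, moderation, weights, blocks and covariates, fits to 1 day, and leaving out each library. All members were named. Genes of other lists were chosen by a rule: those past the threshold, or else the 2 with the smallest p over the mean of days and the 2 with the highest mean. Genes named outside it, such as Cd3e, Tnf or Itgax, were chosen after their values were seen. Members and lists were chosen with earlier results of these data known. Figures used matplotlib 3.10.9.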

Additional observations from a re-analysis of the deposited data

How the results depend on the processing

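The count of members past the threshold was 0 in each of 7 comparisons under every one of the 30 settings that gave it, 192 values in all. The fits to 1 day gave only the comparison of amphetamine with saline on that day. The comparisons were amphetamine against saline on 3 days and over their mean, treatment by day, days within saline, and days over both treatments. The 30 settings include leaving out each library. The smallest adjusted limma p of a member over these settings was 0.251 on single days, 0.439 over the mean of days, 0.311 for the interaction, 0.223 for days within saline and 0.0546 for days over both treatments. In the pairwise day estimates, P2ry12 (day 21 against day 7) passed with array weights alone (limma adjusted p = 0.0369, difference 0.30, against 0.142 to 0.367 with single libraries left out); the cause was not tested. The median difference of tested members on day 7 was 0.1221 with a filter of 5 FPKM, which leaves 16 members. Leaving out 1 library gave medians from 0.0482 to 0.1093 on day 1, from 0.035 to 0.0924 on day 7, from -0.0986 to 0.0028 on day 21 and from 0.0215 to 0.0606 over the mean of days. With the replicate number as a block, 0 members passed, and the medians were 0.0925, 0.055, -0.0641 and 0.0387 in the same order. Deviations of same-numbered libraries correlated at -0.131 to 0.167 (median 0.022), with 7 of 45 pairs over 0.1, and those of differently numbered libraries at -0.139 to 0.137 (median 0.00085), with 4 of 90 over 0.1. Pairs over 0.1 were thus more frequent among same-numbered libraries, and whether these share a source of variation was not tested. On days 7 and 21 saline and amphetamine mice with the same replicate number also fell in the same range of sample numbers. The replicate number and that range are therefore partly confounded. The main fit did not take the number as a pairing. Signs of differences that did not pass turned on day 1 for 4 of 28 members under median-of-ratios scaling, for 6 under array weights, for 8 without amphetamine replicate 3 of that day and for 7 without saline replicate 2.

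Depth in reads is unknown. The number of fragments behind the members under about 1 FPKM was not obtained, so how firmly their values are measured cannot be said. With 3 mice per group, an exact permutation of a single value could not go below 0.1.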

Other observations

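Cd4, better known as the co-receptor of helper T cells, averaged 44.8 FPKM and ran from 35.6 to 58.4 in the 18 libraries, above every one of the 32 members in its mean, while Cd3e, a subunit of the T cell receptor complex, averaged 0.0541 and Cd8a 0.00776. Cd4 differed between amphetamine and saline by -0.15 ± 0.060 (SE) over the mean of days (limma adjusted p = 0.865).

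Syk, the kinase that acts downstream of Tyrobp and Fcer1g, is listed at or next to 0 in all 18 libraries, the highest value being 1.24e-133 FPKM, so its level cannot be read from this table.

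The haemoglobin gene Hbb-b1 ran from 17.1 to 199 FPKM and the choroid plexus gene Ttr from 0.911 to 91.1, a wider range than that of any of the 28 tested members, of which Cd74 had the widest at 3.23-fold.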
